A study of Mus musculus with 12 samples.

Results

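The genes described here are enzymes, and their close relatives, that write or erase marks on histones and DNA, other than Ezh2 and the Polycomb proteins around it. They were picked by gene symbol alone, with the families Kmt2 (as Mll), Setd, Ehmt, Suv39h, Suv420h, Nsd and Whsc1, Prmt, Kat, Kdm, Hdac, Sirt, Dnmt and Tet, which gave 81 genes among 23352 symbols. Of these, 77 were tested, together with 11431 genes in all, because their FPKM reached 1 in 2 or more of 11 libraries. FPKM counts fragments of a gene's transcripts scaled by transcript length and by the number of mapped fragments in the library.

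RNA was sequenced from regulatory T cells (Tregs), the Foxp3-expressing CD4 T cells that restrain immune responses, sorted from the spleen and LN (lymph nodes) of C57BL/6 mice, all female. The 4 groups were KO CD62Llo, KO CD62Lhi, HET CD62Llo and HET CD62Lhi, with 3 libraries each, of which HET CD62Lhi replicate 3 was not used. KO stands for Foxp3YFP-Cre/Foxp3WT;Ezh2fl/fl and HET for Foxp3YFP-Cre/Foxp3WT;Ezh2fl/+, so HET mice carry 1 floxed Ezh2 allele and both genotypes carry the same Cre. CD62L, the surface protein used for the sort, is lost by T cells on activation, so CD62Llo cells are the activated and CD62Lhi cells the resting fraction. Cre is driven by Foxp3, which lies on the X chromosome, and in these heterozygous females it is made only in Tregs that use that X. Neither the age of the mice, nor a sort on YFP, nor separate animals for the replicates is stated in the labels, so p-values measure the spread between libraries, which may be technical.

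Lysine methyltransferases such as the Mll, Nsd and Suv proteins place methyl groups on particular histone lysines, and Kdm enzymes take them off. Kat enzymes acetylate lysines, and Hdac enzymes and the NAD-dependent sirtuins deacetylate them. Dnmt enzymes methylate cytosine, and Tet enzymes oxidise methylcytosine, a step known in mouse Tregs for keeping the Foxp3 enhancer unmethylated. Ezh2 methylates H3K27, the mark that Kdm6a and Kdm6b remove, and methylation of H3K36 is known to hinder that reaction on the same histone tail.

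The excluded HET CD62Lhi library, set aside in its label for low read counts, had 2 of the 81 members above 0. In the other 11 libraries the FPKM intervals implied a median of 537 to 1966 fragments per member, an uncertain estimate because 2 to 14 members per library exceeded their own upper bound. KO CD62Llo replicate 3 was closer to the other fraction of its genotype than to its own group. Its log2(FPKM + 1) correlated with the KO CD62Lhi libraries at r of 0.955 to 0.963 and with its own group at 0.949 and 0.950. The 2 HET CD62Lhi libraries were also closer to another group, KO CD62Lhi (0.9519 to 0.9662), than to each other (0.9515). Ezh2 had 12.5, 16.8 and 14.4 FPKM in KO CD62Llo and 18.2, 17.8 and 20.5 in HET CD62Llo, a log2 change of -0.36 (SE 0.11, limma adjusted p = 0.113). It had 9.15, 11.5 and 11.02 FPKM in KO CD62Lhi and 12.7 and 12.5 in HET CD62Lhi (-0.24, SE 0.12, limma adjusted p = 1). Ezh2 was lower in KO in every library of either pair, but whole-gene FPKM counts transcripts with and without the floxed exons together and does not check the deletion. Summed markers of B cells reached 23.6 to 55.7, 68.3 to 116, 17.4 to 28.9 and 69.9 to 85.0 FPKM in KO CD62Llo, KO CD62Lhi, HET CD62Llo and HET CD62Lhi. The highest single marker was Cd79b. Myeloid markers, led by Lyz2, summed to 34.2 to 268, 15.5 to 22.6, 52.0 to 107 and 14.5 to 29.5 FPKM in the same groups. The 6 listed Treg genes summed to 879 to 989 FPKM in KO CD62Llo, 723 to 756 in KO CD62Lhi, 1005 to 1136 in HET CD62Llo and 721 to 797 in HET CD62Lhi, with no overlap between fractions or between the CD62Llo genotypes.

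Most of the enzymes were made at steady, moderate levels. The median of the mean FPKM was 17.9 over the 77 tested members, against 12.1 over all tested genes. Of all 81 members, 5 had a mean of 50 or above, 50 lay between 10 and 50, 21 between 1 and 10 and 5 under 1. Hdac1, a catalytic subunit of nuclear corepressor complexes, had the highest mean at 115 FPKM. Next came Sirt7 (80.5), Hdac7 (77.7), Prmt1, the main source of asymmetric arginine methylation (76.7), and Whsc1l1, also called Nsd3 (50.3). The leading members of the other classes were Ehmt2, the H3K9 methyltransferase G9a (49.3), Mll1 (34.8), the maintenance methyltransferase Dnmt1 (34.1), Setd3 (33.8), Kdm3b (30.9), Kat6a (29.5), Suv420h1 (26.1) and Tet3 (22.6). Within families the levels were far apart. Tet3 averaged 22.6 FPKM, Tet2 5.87 and Tet1 1.31, Dnmt1 34.1, Dnmt3a 15.0 and Dnmt3b 2.95, and Hdac1 115, Hdac11 1.83 and Hdac9 1.55.

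In 72 of the 77 tested members the highest group mean was under 1.5 times the lowest. The 5 wider members were Hdac9 (2.49 times), Whsc1 (2.13), Hdac11 (1.72), Kdm2b (1.72) and Tet3 (1.54). Replicates were mostly tight, with a median coefficient of variation within groups of 5.22%, but the highest was 31.2%. Under the filter were 4 members: Dnmt3l, Prmt8, Kdm5d and Kdm4d. Kdm5d, a Y-linked H3K4 demethylase, was listed at 0 in all 11 libraries, while its X-linked relative Kdm5c averaged 28.9 FPKM, with log2 changes of at most 0.04 in size in the 4 comparisons between groups. Kdm4d had at most 0.515 FPKM, in HET CD62Llo replicate 1.

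**Figure D1:**
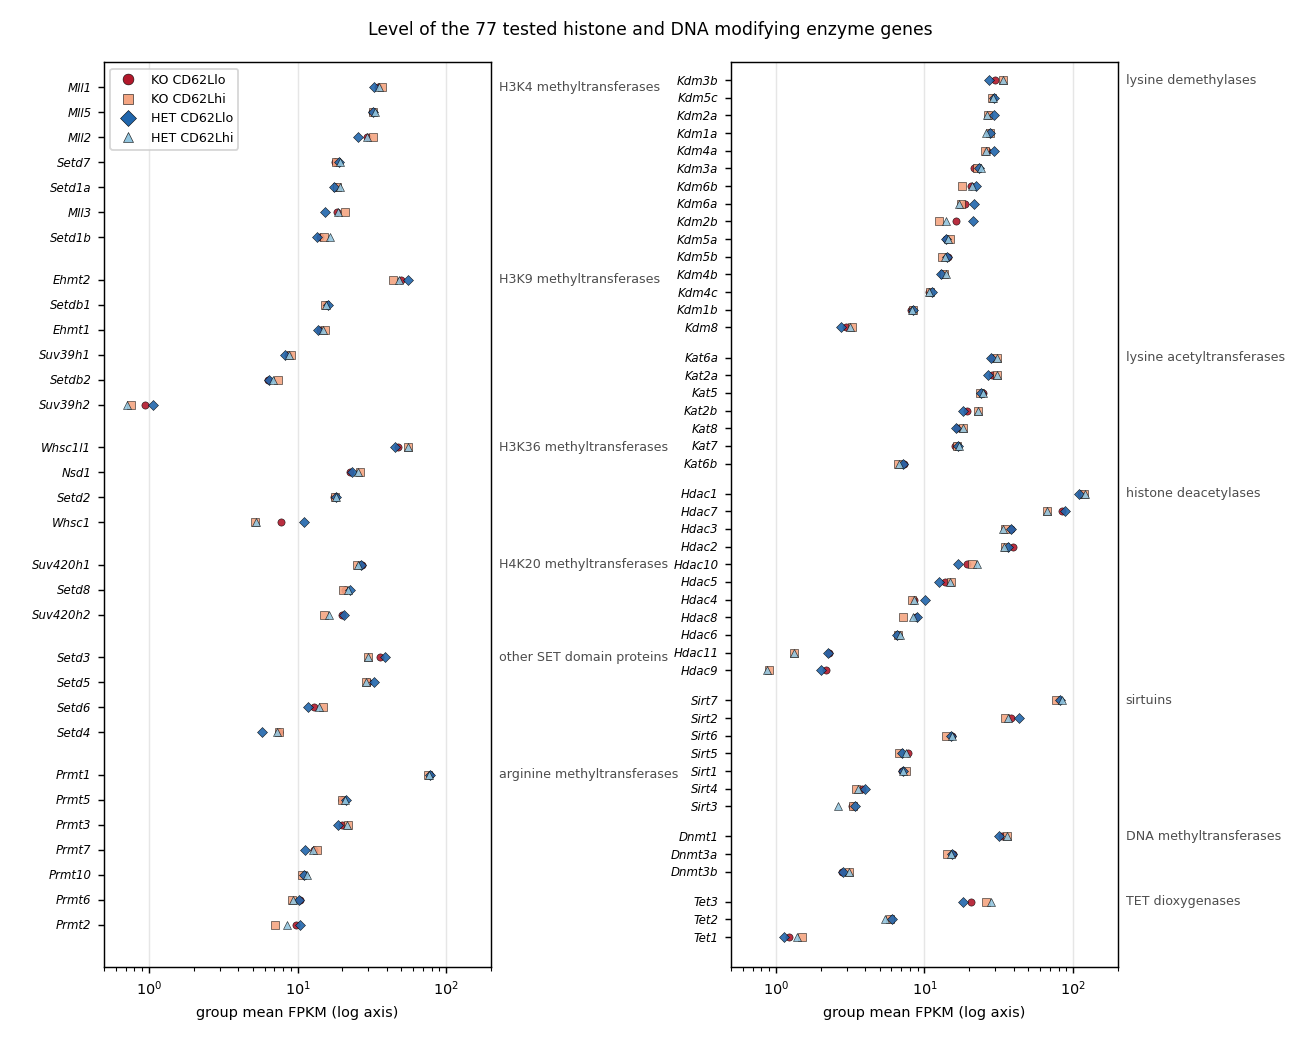
Mean FPKM of each of the 77 tested members in the 4 groups, on a log axis, by enzyme class. The 4 symbols of a gene lie close together for most genes, and those of Whsc1, Kdm2b, Hdac9, Hdac11 and Tet3 are the most spread.

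The first question was which enzymes differ between activated and resting Tregs of either genotype, tested as CD62Llo against CD62Lhi within KO and within HET on log2(FPKM + 1) with limma and Benjamini-Hochberg adjustment over 11431 genes at 0.05. In KO Tregs 7 of 77 members rose in CD62Llo (9.09%) and 4 fell (5.19%). Of all tested genes 11.9% rose and 4.26% fell. In HET Tregs 13 members rose (16.9%) and 7 fell (9.09%), beside 18.8% and 8.88% of all tested genes. Without regard to the test, groups did not overlap for 18 of 77 members higher and 13 lower in KO (24.3% and 10.5% of all tested genes) and for 19 higher and 18 lower in HET (36.1% and 17.9% of all). By this measure the share of members lower was above that of all tested genes in both genotypes, and the share higher was below it. In this fit the shares called are near or below the background, so with the deposited scaling the enzymes were not called clearly more often than other genes. Their median log2 change was -0.01 in KO and -0.01 in HET, against 0.05 and 0.07 over all genes.

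The balance of directions depends on scaling. With each library centred on its median, 7 members rose and 9 fell in KO, beside 8.81% and 8.63% of all tested genes, and 7 rose and 13 fell in HET, beside 13.3% and 16.3%. With quantile normalization, 7 rose and 8 fell in KO, beside 8.35% and 6.97% of all tested genes, and 7 rose and 15 fell in HET, beside 12.5% and 14.3%. The calls over all tested genes shifted in the same direction. Under both scalings and in both genotypes, the share of members that fell was above that of all tested genes, narrowly so for HET with median centring. The share of members that rose was near that of all tested genes in KO and below it in HET. Median centring moved the median change of all genes by -0.08 in KO and -0.10 in HET. The HET counts rest on only 2 HET CD62Lhi libraries. A fit without either of them leaves 1 library in that group. Fewer members were then called in HET, and so were fewer of all tested genes. Without HET CD62Llo replicate 2 the number that fell in HET was 4, beside 7.18% of all tested genes. The 4 KO calls of lower level became 1 or 2 when any library other than KO CD62Llo replicate 3 was left out, and 5 when that library was left out. Of all tested genes, 2.28% to 4.59% fell in KO in the former fits and 4.73% in the latter.

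Most of the KO calls were also HET calls. Whsc1, Kdm2b, Hdac7, Hdac9, Hdac11 and Suv420h2 rose in both, which is 85.7% of the 7 KO calls and 46.2% of the 13 HET calls. Kat2b, Kdm3b, Tet3 and Whsc1l1 fell in both, which is 100% of the 4 KO calls and 57.1% of the 7 HET calls. Prmt2 passed the threshold in KO and not in HET. Kdm2a, Kdm4a, Kdm6a, Setd3, Setd5, Sirt2, Sirt3, Hdac10, Prmt3 and Setd1b passed it in HET and not in KO. None of the 77 members differed between the genotypes in this change by the interaction test, as described with the genotype comparison. In all, 21 members were called in at least 1 comparison and 56 in none. The calls that passed the threshold under each of the 21 alternative settings that could be run for them were Whsc1, Kdm2b, Kat2b, Hdac7, Hdac9, Hdac11 and Prmt2 in KO and Whsc1, Kdm2b, Kdm6a, Kat2b and Tet3 in HET. For Hdac9 in KO that means 20 settings, since the strictest filter removes it.

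**Figure D2:**
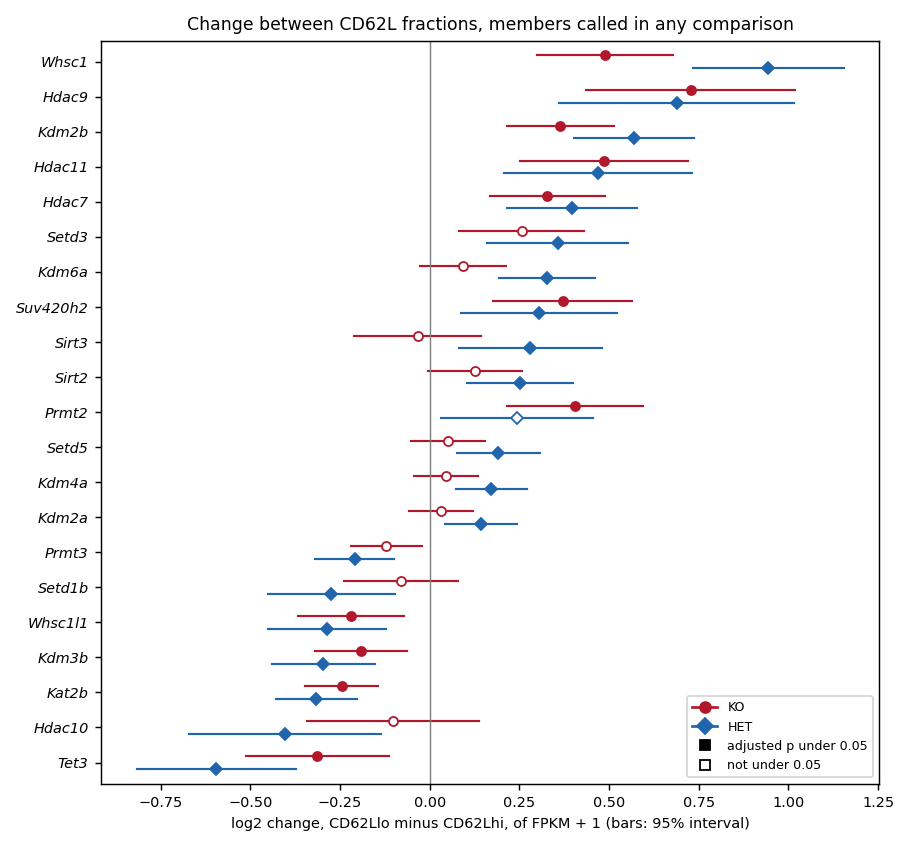
Log2 change of FPKM + 1 between CD62Llo and CD62Lhi in KO and in HET for the 21 called members, with 95% intervals. Filled symbols have an adjusted p under 0.05, and Whsc1, at 0.49 in KO and 0.94 in HET, lies farthest to the right among the HET values.

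Among the H3K36 methyltransferases, Whsc1 and Whsc1l1 moved in opposite directions. Whsc1, now named Nsd2, places H3K36 dimethylation and lies at chr5:33843112-33897966 (mm10). It had 6.78, 8.61 and 7.67 FPKM in KO CD62Llo, against 4.88, 4.88 and 5.79 in KO CD62Lhi. HET CD62Llo libraries held 10.8, 11.1 and 11.1 FPKM, against 5.29 and 5.20 in HET CD62Lhi. The fractions did not overlap in either genotype, and the CD62Llo level in HET was above that in KO in each library. The log2 change was 0.49 in KO (SE 0.08, 1.48-fold, limma adjusted p = 0.00420) and 0.94 in HET (SE 0.09, 2.101-fold, limma adjusted p = 0.000104).

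Whsc1l1, a paralog of Whsc1, had 45.6, 44.6 and 52.4 FPKM in KO CD62Llo, against 54.0, 55.1 and 57.0 in KO CD62Lhi. In HET CD62Llo it had 45.1, 43.6 and 46.0 FPKM, against 57.6 and 52.5 in HET CD62Lhi. It fell by 0.22 on the log2 scale in KO (limma adjusted p = 0.0494) and by 0.29 in HET (0.0166). The KO call was lost in 14 of 21 alternatives, with adjusted p up to 0.160. The HET call was lost in 2 of them, at 0.146 when HET CD62Lhi replicate 1 was left out and at 0.0520 when HET CD62Llo replicate 2 was. The other members of this class, Nsd1 and the trimethylating enzyme Setd2, had log2 changes of -0.22 and -0.03 in KO and -0.14 and 0.00 in HET and did not pass the test.

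Among the 15 tested demethylases, Kdm2b changed most. Kdm2b removes methyl groups from H3K36 and, through a zinc finger that binds unmethylated CG, brings a variant Polycomb complex to CpG islands. Its gene, at chr5:122870675-122989092 on the minus strand, has start sites far apart, and shorter transcripts lack the demethylase domain. The deposited FPKM pools them. RefSeq gives 4 start windows of 250 bases (GRCm38.p6, minus strand), a pair at the upstream end and a pair, overlapping each other, farther downstream. Both upstream windows and 1 of the downstream pair are shown, with CG in capitals, because CG is what the zinc finger of the protein binds and the windows differ in how much they hold.

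Kdm2b first upstream window, chr5:122989100-122989349: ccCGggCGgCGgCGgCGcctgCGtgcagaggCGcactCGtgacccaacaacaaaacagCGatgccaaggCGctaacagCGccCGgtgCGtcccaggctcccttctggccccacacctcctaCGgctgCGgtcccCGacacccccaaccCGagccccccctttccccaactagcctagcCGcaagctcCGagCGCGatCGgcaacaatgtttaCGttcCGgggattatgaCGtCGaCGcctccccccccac

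Kdm2b other upstream window, chr5:122988508-122988757: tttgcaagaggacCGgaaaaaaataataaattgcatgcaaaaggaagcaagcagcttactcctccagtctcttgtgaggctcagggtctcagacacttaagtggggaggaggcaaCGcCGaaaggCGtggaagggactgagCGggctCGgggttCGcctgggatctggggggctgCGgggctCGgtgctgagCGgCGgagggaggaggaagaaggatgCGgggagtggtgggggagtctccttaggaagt

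Kdm2b downstream window, chr5:122900351-122900600: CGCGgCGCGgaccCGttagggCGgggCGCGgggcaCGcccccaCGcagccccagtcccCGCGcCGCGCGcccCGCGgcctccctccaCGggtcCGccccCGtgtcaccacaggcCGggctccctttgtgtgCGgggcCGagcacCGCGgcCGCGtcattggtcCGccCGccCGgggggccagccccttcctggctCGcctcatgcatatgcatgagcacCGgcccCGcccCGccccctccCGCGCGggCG

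The upstream windows hold 27 and 12 CG, counts reached by 8.57% and 33.5% of 32817 RefSeq promoter windows of this length. The downstream window shown holds 38, reached by 1.88%, and the one that overlaps it 36, reached by 2.58%. The motif reads the same on either strand, 92.1% of the windows hold at least 1, and the median is 6.

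Kdm2b had 15.5, 17.6 and 15.8 FPKM in KO CD62Llo, against 13.0, 11.8 and 12.5 in KO CD62Lhi. It had 19.8, 22.7 and 21.5 FPKM in HET CD62Llo, against 13.8 and 14.3 in HET CD62Lhi. No CD62Llo library overlapped the CD62Lhi range of its genotype, and HET CD62Llo was the highest of the groups. The log2 change was 0.36 in KO (SE 0.07, 1.31-fold, limma adjusted p = 0.00545) and 0.57 in HET (SE 0.07, 1.52-fold, limma adjusted p = 0.000470). Of its exonic bases, 16.2% overlap exons of other annotated genes, among them Rnf34 on the opposite strand, and the reads of such bases cannot be assigned without strand. Its paralog Kdm2a rose in HET by 0.14 (limma adjusted p = 0.0382), with 30.3, 29.1 and 28.2 FPKM in HET CD62Llo and 26.4 and 26.3 in HET CD62Lhi. That call was lost in 13 of 21 alternatives, and Kdm2a had a log2 change of 0.03 in KO (0.655).

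The H3K27 demethylases, which work against Ezh2, are Kdm6a and Kdm6b. Kdm6a (UTX), an X-linked gene at chrX:18162667-18279358, had 18.6, 19.2 and 18.5 FPKM in KO CD62Llo, against 16.7, 18.2 and 17.8 in KO CD62Lhi. HET CD62Llo had 20.6, 21.8 and 22.4 FPKM, against 17.7 and 16.3 in HET CD62Lhi. The HET fractions were well apart and the KO fractions narrowly so. Kdm6a rose in HET (log2 change 0.33, SE 0.06, limma adjusted p = 0.00299), and in KO the change was 0.09 (SE 0.05, 0.286). Kdm6b (JMJD3) had 20.5, 20.003 and 21.3 FPKM in KO CD62Llo and 19.5, 17.5 and 16.4 in KO CD62Lhi, and 23.6, 21.0 and 22.2 in HET CD62Llo and 21.7 and 19.9 in HET CD62Lhi. Its log2 changes of 0.20 in KO (limma adjusted p = 0.0836) and 0.09 in HET (0.421) did not pass the test.

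Of the H3K9 demethylases, Kdm3b, the most abundant demethylase, had 30.0, 27.7 and 31.3 FPKM in KO CD62Llo, against 35.2, 34.8 and 32.0 in KO CD62Lhi. In HET it had 27.4, 27.7 and 26.6 FPKM in CD62Llo, against 32.8 and 34.5 in CD62Lhi. It fell by 0.19 in KO (limma adjusted p = 0.0498) and by 0.30 in HET (0.00722). The KO call sat at the threshold and was lost in 14 of 21 alternatives, among them the fit with the replicate number as a block (0.0647). The HET call was lost without HET CD62Lhi replicate 2 (0.0681). Kdm4a, which acts on H3K9 and H3K36, rose in HET by 0.17 (limma adjusted p = 0.0177), a call lost in 5 of 21 alternatives. None of the 5 tested H3K4 demethylases passed the test in either genotype.

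**Figure D3:**
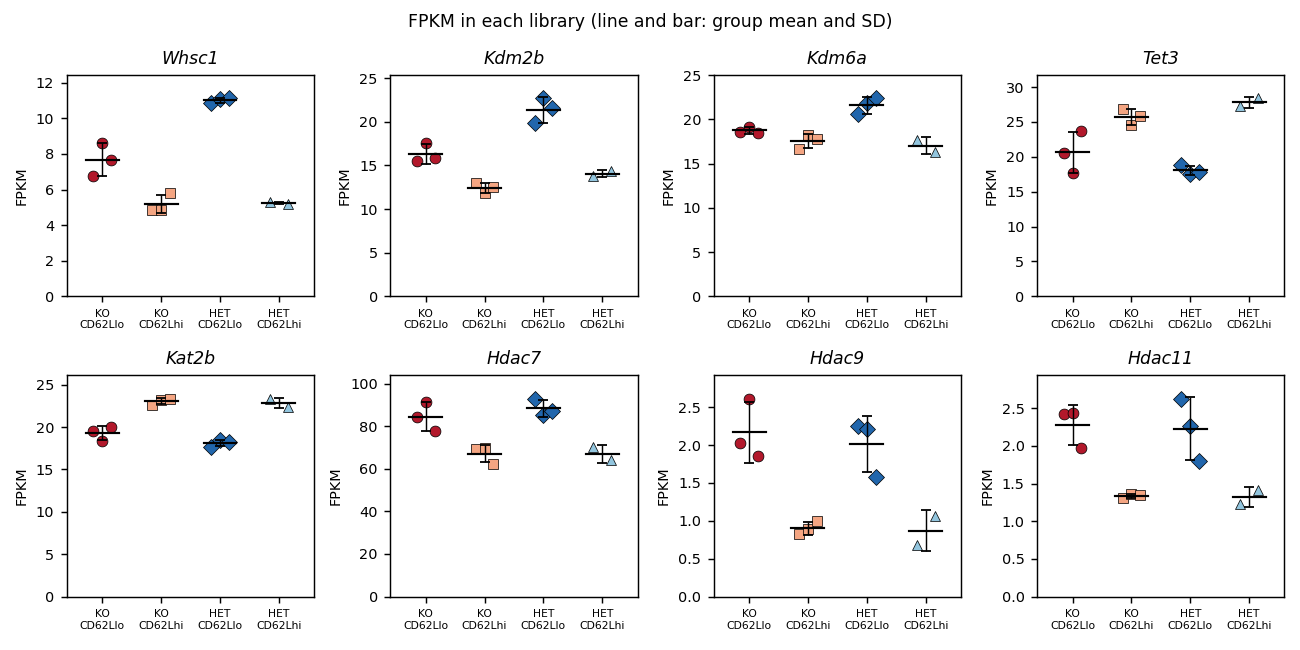
FPKM of 8 called members in every library, with group means (lines) and SD (bars). Whsc1, Kdm2b and Kdm6a are highest in HET CD62Llo, Tet3 and Kat2b are higher in both CD62Lhi groups, and Hdac7, Hdac9 and Hdac11 are higher in both CD62Llo groups.

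The deacetylases that rose were Hdac7 and Hdac9 of class IIa and Hdac11, the sole class IV enzyme. Hdac7, an abundant corepressor known for its part in thymocyte development, had 84.4, 91.2 and 77.8 FPKM in KO CD62Llo, against 69.1, 69.5 and 62.4 in KO CD62Lhi. In HET it had 93.0, 85.3 and 87.2 FPKM in CD62Llo, against 70.1 and 64.0 in CD62Lhi. Both genotypes showed fully separate fractions. The log2 change was 0.33 in KO (SE 0.07, limma adjusted p = 0.0132) and 0.40 in HET (SE 0.08, limma adjusted p = 0.00532), and the HET call was lost without HET CD62Lhi replicate 2 (0.0578).

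Hdac9, which in mice is known to limit Treg suppressive function, was low throughout. It had 2.03, 2.61 and 1.86 FPKM in KO CD62Llo, against 0.825, 0.895 and 0.995 in KO CD62Lhi, and 2.25, 2.21 and 1.58 in HET CD62Llo, against 0.678 and 1.06 in HET CD62Lhi. The ratio of mean FPKM was 2.39 in KO and 2.31 in HET, the widest of the called members in either comparison. On the log2(FPKM + 1) scale, which understates changes of low genes, it rose by 0.73 in KO (SE 0.13, limma adjusted p = 0.00513) and 0.69 in HET (SE 0.15, limma adjusted p = 0.00657). The HET call was lost without HET CD62Lhi replicate 1 (0.0720). Hdac11 had 2.42, 2.44 and 1.98 FPKM in KO CD62Llo, against 1.30, 1.36 and 1.34 in KO CD62Lhi, and 2.63, 2.26 and 1.803 in HET CD62Llo, against 1.23 and 1.42 in HET CD62Lhi. It rose by 0.49 in KO (SE 0.10, limma adjusted p = 0.0121) and 0.47 in HET (SE 0.12, limma adjusted p = 0.0150), and the HET call was lost in 3 alternatives: without HET CD62Lhi replicate 1 (0.111), quantile normalization (0.0783) and a fit to these groups alone (0.0695). For Hdac11, 26.0% of exonic bases overlap annotated genes on the opposite strand.

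Hdac10 (class IIb), known as a polyamine deacetylase, went the other way in HET. It had 18.8, 15.0 and 16.8 FPKM in HET CD62Llo, against 24.7 and 20.6 in HET CD62Lhi, and fell by 0.40 (SE 0.12, limma adjusted p = 0.0311). In KO it had 20.7, 18.1 and 19.2 FPKM in CD62Llo, against 23.2, 20.8 and 18.6 in CD62Lhi, a log2 change of -0.10 (0.577). The HET call was lost in 5 of 21 alternatives: without HET CD62Lhi replicate 1 (0.237), HET CD62Llo replicate 2 (0.0922) or 3 (0.0680), with no filter (0.0518) and in a fit to these groups alone (0.0787). The class I enzymes Hdac1 and Hdac3 did not pass the test, with log2 changes of -0.05 and 0.12 in KO (limma adjusted p = 0.531 and 0.290) and -0.14 and 0.18 in HET (0.0854 and 0.113).

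Of the 7 acetyltransferases, Kat2b (PCAF), a SAGA-type coactivator, had 19.5, 18.4 and 20.03 FPKM in KO CD62Llo, against 22.6, 23.2 and 23.4 in KO CD62Lhi. In HET it had 17.7, 18.4 and 18.3 FPKM in CD62Llo, against 23.2 and 22.4 in CD62Lhi. The fractions were separate in both genotypes, and Kat2b fell by 0.25 in KO (SE 0.05, limma adjusted p = 0.00585) and by 0.32 in HET (SE 0.05, limma adjusted p = 0.00151). Its paralog Kat2a (GCN5) had log2 changes of -0.10 in KO (0.499) and -0.19 in HET (0.159), and neither Kat2a nor the other acetyltransferases passed the test. Among the sirtuins none passed in KO. In HET, Sirt2 rose by 0.25 (limma adjusted p = 0.0180), and the mitochondrial deacetylase Sirt3 by 0.28 (0.0413), calls lost in 4 and 14 of 21 alternatives. With the replicate number as a block the Sirt3 value was 0.0737. For Sirt3, 12.4% of exonic bases overlap Psmd13 and Ric8a on the opposite strand. Sirt1 stayed between 6.92 and 7.76 FPKM in all 11 libraries.

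Of the enzymes that act on DNA methylation, Tet3 was the one that changed. It lies at chr6:83362374-83441678, and the 250 bases before its start (RefSeq, GRCm38.p6, minus strand) hold 17 CG, a count reached by 23.5% of the windows. The window is shown with CG in capitals because one form of Tet3 itself carries a zinc finger that recognises cytosine in CG.

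Tet3, chr6:83441679-83441928: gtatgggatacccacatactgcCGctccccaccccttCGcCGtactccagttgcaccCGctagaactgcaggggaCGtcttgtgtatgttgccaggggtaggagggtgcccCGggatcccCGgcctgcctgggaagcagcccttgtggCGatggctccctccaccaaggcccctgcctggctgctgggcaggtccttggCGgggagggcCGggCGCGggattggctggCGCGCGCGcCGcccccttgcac

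Tet3 had 20.6, 17.7 and 23.6 FPKM in KO CD62Llo, against 26.8, 24.5 and 25.9 in KO CD62Lhi. In HET it had 18.8, 17.6 and 17.8 FPKM in CD62Llo, against 27.2 and 28.4 in CD62Lhi. The HET fractions were far apart, and the highest KO CD62Llo library, replicate 3, lay just under the KO CD62Lhi range. Tet3 fell by 0.31 in KO (SE 0.09, 0.802-fold, limma adjusted p = 0.0400) and by 0.60 in HET (SE 0.10, 0.650-fold, limma adjusted p = 0.00186). The KO call was lost in 11 of 21 alternatives, 9 of which leave out a library, with adjusted p up to 0.128. Without KO CD62Llo replicate 3 the KO change was -0.41 (0.00608). Tet2 and Tet1 had log2 changes of 0.02 and -0.17 in KO (limma adjusted p = 0.873 and 0.296) and 0.15 and -0.16 in HET (0.227 and 0.318).

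Dnmt1 had 32.1, 34.2 and 33.7 FPKM in KO CD62Llo, against 36.1, 35.98 and 35.8 in KO CD62Lhi, and 34.6, 31.3 and 29.7 in HET CD62Llo, against 35.8 and 36.3 in HET CD62Lhi. The CD62Llo values were the lower ones in both genotypes, but log2 changes of -0.11 in KO (limma adjusted p = 0.239) and -0.18 in HET (0.0651) did not pass the test. The de novo methyltransferases Dnmt3a and Dnmt3b had log2 changes of 0.13 and -0.12 in KO (limma adjusted p = 0.236 and 0.205) and 0.02 and -0.09 in HET (0.886 and 0.330).

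Of the remaining methyltransferases, Suv420h2 rose in both genotypes and Prmt2 in KO. Suv420h2, which makes H4K20 trimethylation, had 20.7, 19.0 and 19.6 FPKM in KO CD62Llo, against 16.0, 15.1 and 14.1 in KO CD62Lhi, and 23.2, 18.2 and 20.01 in HET CD62Llo, against 17.1 and 15.5 in HET CD62Lhi. It rose by 0.37 in KO (SE 0.09, limma adjusted p = 0.0174) and 0.30 in HET (SE 0.10, limma adjusted p = 0.0418). The KO call was lost without KO CD62Lhi replicate 2 (0.0545) or 3 (0.0633) and without KO CD62Llo replicate 1 (0.0597), and the HET call in 12 of 21 alternatives. Prmt2, an arginine methyltransferase, had 9.62, 9.18 and 10.3 FPKM in KO CD62Llo, against 6.59, 7.59 and 7.10 in KO CD62Lhi, and rose by 0.41 (SE 0.08, limma adjusted p = 0.0105). In HET it had 11.5, 10.3 and 9.22 FPKM in CD62Llo and 8.08 and 9.02 in CD62Lhi, a change of 0.24 (0.0854).

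Setd3, an actin histidine methyltransferase with a SET domain, had 31.7, 40.2 and 35.5 FPKM in KO CD62Llo, against 28.9, 31.0 and 29.2 in KO CD62Lhi, and 38.3, 37.3 and 39.9 in HET CD62Llo, against 29.0 and 30.7 in HET CD62Lhi. It rose in HET by 0.36 (SE 0.09, limma adjusted p = 0.0136), a call lost without HET CD62Lhi replicate 1 (0.102), while the KO change of 0.26 missed the threshold (0.0530). Smaller HET changes were those of Setd5 (0.19, limma adjusted p = 0.0206), Setd1b of the H3K4 family (-0.27, 0.0277) and Prmt3 (-0.21, 0.0113), lost in 6, 5 and 2 of 21 alternatives. None of the 6 H3K9 methyltransferases passed the test in either genotype. Ehmt2 had log2 changes of 0.18 in KO (0.158) and 0.20 in HET (0.126), and Suv39h1 of -0.08 in both (0.505 in KO and 0.512 in HET). The other leading members, Mll1, Kat6a, Suv420h1, Prmt1 and Sirt7, had log2 changes between -0.12 and 0.11 in these comparisons and did not pass. Over the 56 members called in no comparison, changes ran from -0.22 (Nsd1) to 0.26 (Hdac8) in KO and from -0.29 (Setd4) to 0.27 (Suv39h2) in HET.

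Markers of some other cells and of division moved with the fraction. Red cell markers did not, and they varied widely within groups. They summed to 3.94 to 155 FPKM in KO CD62Llo and 8.34 to 295 in KO CD62Lhi. In HET they summed to 16.9 to 183 FPKM in CD62Llo and 108 to 127 in CD62Lhi. B cell markers summed higher in CD62Lhi, and so did CD8 T and NK cell markers, to 12.7 to 19.7 FPKM in KO CD62Llo, 31.1 to 37.9 in KO CD62Lhi, 14.9 to 17.2 in HET CD62Llo and 40.9 to 45.6 in HET CD62Lhi. The 28 cell cycle genes summed to 392 to 476, 363 to 388, 420 to 492 and 385 to 392 FPKM in the same 4 groups, so each CD62Llo library exceeded each CD62Lhi library of its genotype. Of 26 tested cell cycle genes, 1 rose in KO CD62Llo (Mcm6, log2 change 0.50, limma adjusted p = 0.00379) and 4 in HET CD62Llo, led by Mcm6 (0.80, 0.000280) and Mki67 (0.62, 0.0400). The Treg list also summed higher in CD62Llo. The part of these lists in the changes of the enzymes was not tested. In such bulk samples fewer cells of a type and less RNA per cell cannot be told apart.

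The second question was which enzymes differ with Ezh2 genotype, tested as KO against HET in each fraction. In CD62Llo, no member rose and 2 of 77 fell in KO (2.60%), Whsc1 and Kdm2b, beside 1.36% and 3.25% of all tested genes, so the share is again near the background. Whsc1 had 6.78, 8.61 and 7.67 FPKM in KO CD62Llo and 10.8, 11.1 and 11.1 in HET CD62Llo, with means of 7.69 ± 0.918 and 11.02 ± 0.154 (SD, n = 3 each). Every KO library was below every HET library, and Whsc1 fell by 0.47 on the log2 scale (SE 0.08, 95% interval -0.66 to -0.29, 0.698-fold, limma adjusted p = 0.0156). Over the alternatives the adjusted p ran between 0.00922 and 0.0754. The call was lost in a fit to these groups alone (0.0754), without HET CD62Llo replicate 2 (0.0615) and without KO CD62Llo replicate 1 (0.0520), and held without KO CD62Llo replicate 3 (0.0476).

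Kdm2b averaged 16.3 ± 1.11 FPKM in KO CD62Llo and 21.4 ± 1.44 in HET CD62Llo (SD, n = 3 each), again with no overlap. It fell by 0.37 (SE 0.07, 95% interval -0.52 to -0.22, 0.764-fold, limma adjusted p = 0.0163), and its adjusted p ran between 0.0122 and 0.0966 over the alternatives. The highest was from a fit to these groups alone, and the call was also lost without HET CD62Llo replicate 2 (0.0669) or 3 (0.0516) and without KO CD62Llo replicate 1 (0.0681) or 3 (0.0564). Both genes are those with the smallest p-values for the rise in HET CD62Llo, and both comparisons share the HET CD62Llo libraries, so they are not independent.

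Several markers differed between the same CD62Llo libraries. B cell markers summed to 23.6 to 55.7 FPKM in KO CD62Llo and 17.4 to 28.9 in HET CD62Llo. The list of endothelial and stromal genes summed to 50.8 to 55.9 and 37.1 to 40.6. In CD62Lhi the same list was higher, at 68.3 to 78.6 FPKM in KO and 67.2 to 72.1 in HET. Its sum is mostly Pecam1, with a mean of 57.5 FPKM over all libraries used, so it does not show endothelial or stromal cells. Cell cycle genes summed to 392 to 476 FPKM in KO and 420 to 492 in HET, with Mcm6 at a log2 change of -0.33 (limma adjusted p = 0.0608) and Mki67 at -0.39 (0.261). The 6 Treg genes summed to 879 to 989 FPKM in KO CD62Llo and 1005 to 1136 in HET CD62Llo. The part of these differences in the lower Whsc1 and Kdm2b levels was not tested.

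Groups without overlap in CD62Llo were found for 2 members higher in KO (Prmt3 and Kdm3b) and 7 lower (Whsc1, Kdm2b, Kdm6a, Kdm2a, Kdm4a, Setd5 and Sirt2), beside 6.55% and 13.7% of all tested genes. Kdm6a had 18.6, 19.2 and 18.5 FPKM in KO CD62Llo and 20.6, 21.8 and 22.4 in HET CD62Llo, a log2 change of -0.19 (SE 0.05, 95% interval -0.31 to -0.07) that did not pass the test (limma adjusted p = 0.0794). The remaining members without a call had log2 changes between -0.22, that of Hdac4, and 0.33, that of Setd4 (95% interval 0.02 to 0.63, limma adjusted p = 0.231). The values of Tet3 were 0.17 (0.330), of Hdac9 0.07 (0.814), of Hdac7 -0.07 (0.660) and of Kat2b 0.09 (0.342). Kdm6b had -0.11 (0.457), Dnmt1 0.06 (0.585), Ehmt2 -0.14 (0.374) and Suv39h1 0.05 (0.750). A miss at this threshold does not show equal levels.

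In CD62Lhi, limma called no member and no gene at all between KO and HET, with an unadjusted p under 0.05 for 4 members and 328 genes. Whsc1 had 4.88, 4.88 and 5.79 FPKM in KO CD62Lhi and 5.29 and 5.20 in HET CD62Lhi, overlapping ranges with a log2 change of -0.02 (SE 0.09, 95% interval -0.23 to 0.19, limma adjusted p = 1). Kdm2b had 13.0, 11.8 and 12.5 FPKM in KO CD62Lhi and 13.8 and 14.3 in HET CD62Lhi, lower in KO in each library, with a log2 change of -0.16 (SE 0.07, 95% interval -0.33 to 0.00, limma adjusted p = 1). Groups did not overlap for 4 members higher and 12 lower in KO CD62Lhi, beside 7.83% and 14.4% of all tested genes. The 4 members with the small unadjusted p were Kdm6b (-0.22), Prmt2 (-0.24), Hdac8 (-0.20) and Sirt3 (0.26), with limma adjusted p = 1 for each.

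The difference between KO and HET in the fraction change was tested as an interaction. No member passed, 1 gene did among all tested (0.00875% higher and 0% lower), and 3 members and 868 genes had an unadjusted p under 0.05. For Whsc1 the fraction change was smaller in KO by 0.46 on the log2 scale (SE 0.13, interaction -0.46, limma adjusted p = 0.353). The values were -0.23 for Kdm6a (SE 0.08, limma adjusted p = 0.505) and -0.31 for Sirt3 (SE 0.12, 0.564), and -0.21 for Kdm2b (SE 0.10, 0.685) and 0.28 for Tet3 (SE 0.13, 0.674). These misses do not show that the responses were alike.

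**Figure D4:**
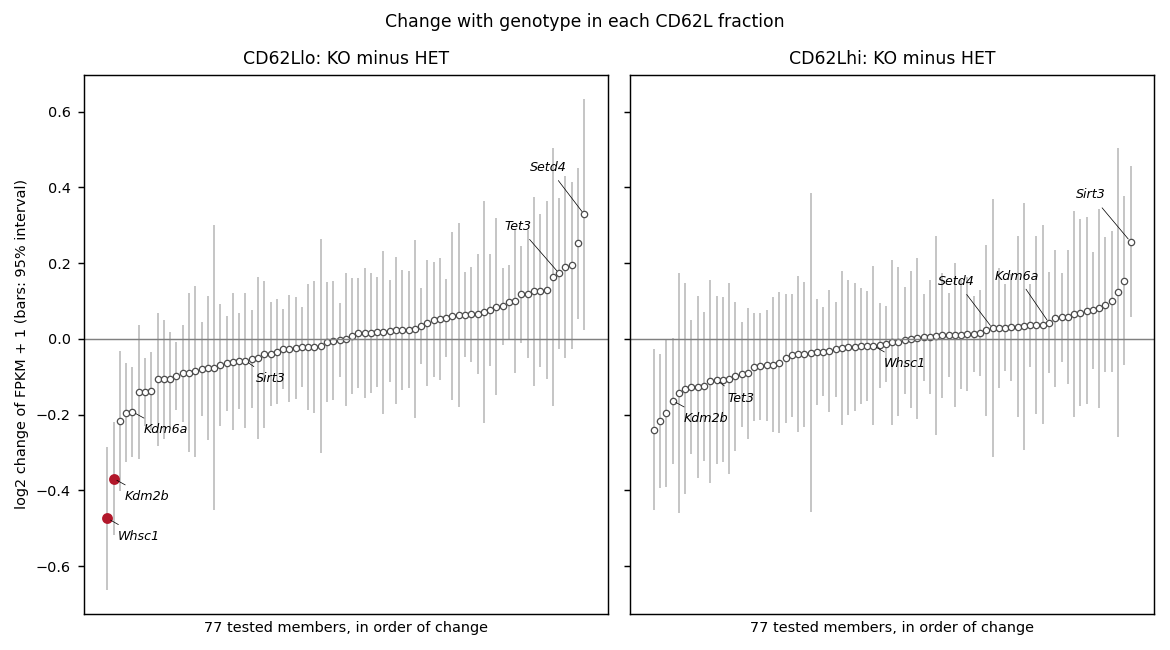
Log2 change of FPKM + 1 in KO against HET for the 77 tested members in CD62Llo (left) and CD62Lhi (right), in order of size with 95% intervals. Filled points, Whsc1 at -0.47 and Kdm2b at -0.37 in CD62Llo, have an adjusted p under 0.05, and no point in CD62Lhi does.

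Related enzymes and complex partners outside the symbol families were taken from lists of named genes. Of 26 other tested writers and erasers, 3 rose (11.5%) and none fell in KO CD62Llo against KO CD62Lhi, and 6 rose (23.1%) and 2 fell (7.69%) in HET. Of all tested genes 11.9% rose and 4.26% fell in KO and 18.8% rose and 8.88% fell in HET, so the list is near the background. Smyd5, a SET and MYND domain methyltransferase, rose by 0.55 in KO (limma adjusted p = 0.00491) and 0.52 in HET (0.00598), and Ezh2 itself by 0.43 (0.0282) and 0.55 (0.00928). The acetyltransferase Crebbp fell in HET by 0.22 (limma adjusted p = 0.0245). Of 55 tested partners of the members in complexes, 3 rose (5.45%) and 1 fell (1.82%) in KO, and 3 rose (5.45%) and none fell in HET, below the same shares of all tested genes. Sap30, a subunit of the Sin3 deacetylase complex, rose by 0.47 in KO (limma adjusted p = 0.0246) and 0.51 in HET (0.0171), and Tbl1xr1, of the NCoR complex that holds Hdac3, by 0.25 (0.0191) and 0.39 (0.00208). Between KO and HET in CD62Llo 1 partner was called, Mta3 of the NuRD deacetylase complex, with 33.8, 36.3 and 36.2 FPKM in KO CD62Llo and 41.2, 42.8 and 42.0 in HET CD62Llo. Every KO library was below the HET range, and Mta3 fell by 0.24 (SE 0.05, limma adjusted p = 0.0353).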

How the data were processed

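RNA from sorted Tregs was extracted with TRIzol and made into poly(A) TruSeq libraries, per the labels' protocols. The submitters' processing notes name CASAVA 1.8.2, FastQC, TopHat, Cufflinks 2.1.1 and the mm10 genome. The authors deposited FPKM per gene and library from Cufflinks, with intervals. No raw counts were used, so a count test was not run and depth is known only from the fragments implied by the intervals. FPKM of entries that share a symbol were summed. Whether counting used strand is not given in the sources used here.

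Values were taken as log2(FPKM + 1), which understates changes of low genes, and genes with FPKM of at least 1 in at least 2 of 11 libraries were kept. One limma 3.58.1 fit (R 4.3.3) with 4 group means and an intensity trend gave 5 contrasts, with Benjamini-Hochberg adjustment over 11431 genes at 0.05. The fit was also run on simulated data with independent noise and 1 spread per gene. That run covers neither pairing of libraries nor unequal spread between groups, and its changes were larger than most reported here. It is not used as support for any call. HET CD62Lhi replicate 3 was left out, and the merged table was not used.

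Members and lists were chosen with earlier results of these data known. Genes named are the members called in any contrast, the most abundant member of each class and a list of well-known enzymes, and up to 4 called genes per other list. Alternatives were other pseudocounts, filters and scalings, the replicate number as a block, and leaving out each library. The replicate numbers were checked as pairs, since no label states pairing. Deviations of same-numbered KO CD62Llo and HET CD62Llo libraries correlated at 0.165, 0.153 and 0.148, all over 0.1. Those of KO CD62Llo and KO CD62Lhi were 0.131, 0.0684 and 0.178, and of HET CD62Llo and HET CD62Lhi 0.135 and 0.0732. Those of KO CD62Lhi and HET CD62Lhi were 0.075 and -0.032. KO CD62Lhi replicate 2 correlated more with KO CD62Llo replicate 1 (0.086) than with the library of its own number. Pairing therefore remained uncertain. The main fit has no block, so its p-values ignore pairing, which enters only in the alternative with the replicate number as a block. Promoter windows are from RefSeq (GRCm38.p6).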

Additional observations from a re-analysis of the deposited data

How the results depend on the processing

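No called member changed direction under any of the 21 alternatives. For CD62Llo against CD62Lhi in KO, 4 members fell, but 8 with quantile normalization, 9 with median centring, 1 with no filter, 2 with a filter in every library, 1 in a fit to the groups compared alone and 2 without the trend. Of all tested genes 4.26% fell in KO, and 6.97%, 8.63%, 2.26%, 4.34%, 3.15% and 4.24% under these settings in turn. For the same comparison in HET, 13 rose, but 7 with quantile normalization, 7 with median centring and 6 in a fit to the groups compared alone. The shares of all tested genes were 18.8%, and 12.5%, 13.3% and 14.6%. In HET 7 fell, but 15 with quantile normalization, 13 with median centring and 4 in a fit to the groups alone. The shares of all were 8.88%, and 14.3%, 16.3% and 6.73%. For KO against HET in CD62Llo, 2 fell, but 0 in a fit to the groups alone, beside 3.25% and 0.735% of all. The cause of these shifts was not tested, beyond fewer libraries in the fit to the groups alone. Leaving out 1 library at a time gave 6 to 8 higher and 1 to 5 lower in KO, 5 to 13 higher and 3 to 9 lower in HET, 0 to 1 higher and 0 to 2 lower for KO against HET in CD62Llo, and 0 in CD62Lhi and in the interaction. The lowest of the KO against HET counts came without HET CD62Llo replicate 2 and without KO CD62Llo replicate 1. With the replicate number as a block, 9 members rose and 4 fell in KO, 14 rose and 9 fell in HET, and the same 2 fell for KO against HET in CD62Llo (Whsc1 0.0166 and Kdm2b 0.0199 by limma). Of all tested genes the block gave 14.7% higher and 5.35% lower in KO and 21.9% and 9.89% in HET. It gave 4.59% lower for KO against HET in CD62Llo. The Whsc1 change of KO against HET in CD62Lhi, -0.02 and not called, ranged between -0.087 and 0.017 when 1 library was left out, above 0 without KO CD62Lhi replicate 1 and without replicate 2. Of the 20 HET calls 5 passed in every alternative, of the 11 KO calls 7, and of the 2 genotype calls 0. Depth limits the low members most: the intervals implied 69.2 to 298 fragments per library for Hdac9 and 56.5 to 126 for Hdac11, against 1692 to 7798 for Hdac1.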
